A study of Arabidopsis thaliana with 3 samples.

Results

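The chloroplast genome of Arabidopsis thaliana still carries part of the genes for the photosynthetic apparatus, and 45 of these loci are described here out of 27374 loci with a value. They were taken as a named list, by gene name and not by level: 5 psa genes of photosystem I, 15 psb genes of photosystem II, 6 pet genes of the cytochrome b6f complex, 6 atp genes of the ATP synthase, 12 ndh loci of the NDH complex and rbcL, which encodes the large subunit of Rubisco. RNA was measured in 3 libraries of whole wild-type seedlings of the accession Col-0, 9 days old, kept on plates at 23 °C under a day of 16 h light and 8 h dark. Total RNA was depleted of ribosomal RNA, without selection for poly(A) tails, and made into strand-specific libraries. The 3 libraries are replicates 1 to 3 of 1 group, with no mutant and no treatment, so genes were compared with each other within each library. Nothing in the labels says that separate cultures were used for them, and each title ends in (2) without an explanation. SDs and p-values therefore measure the spread between these libraries.

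Photosystem II splits water and passes electrons through plastoquinone to the cytochrome b6f complex, and photosystem I passes them on to ferredoxin. The ATP synthase uses the proton gradient that this transport builds, and Rubisco fixes carbon dioxide. The NDH complex returns electrons from ferredoxin to plastoquinone and is a minor component of the thylakoid membrane. Most chloroplast genes are transcribed as groups from a shared promoter, and the long precursors are then cut, trimmed and spliced, so that neighbours in a group can differ in level. Many of the small subunits are single membrane helices, and their coding sequences are very short.

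Levels are FPKM, a fragment count scaled to transcript length and to library size, summed over the transcripts of a locus. Of the 45 genes, 14 (31.1%) were listed at 0 in all 3 libraries, and 31 had a value throughout. By comparison, 2 of the 43 other chloroplast loci and 16.5% of 27164 nuclear loci were at 0 in all 3. All 31 genes with a value lay above the 99th percentile of nuclear protein-coding genes (259 FPKM). Of them, psbN (ATCG00700), psaJ (ATCG00630), atpH (ATCG00140) and psbE (ATCG00580), 4 genes of 132 to 252 nt, exceeded the highest nuclear protein-coding gene (18681 FPKM). High levels were not particular to these genes. The 41 other chloroplast loci above 0 had means of 190 to 43703 FPKM, and the highest, rps14, also exceeded every nuclear protein-coding gene. The median over all 43 was 844 FPKM. The 31 genes together made up 57.1%, 59.7% and 57.0% of all FPKM in libraries 1, 2 and 3, but psbN alone held 44.6%, 45.5% and 43.3%. Without psbN in the numerator and the total, the others held 22.7%, 26.0% and 24.1%. Of the tissue markers, 3 shoot genes had 995 to 14284 FPKM, highest for the antenna gene CAB1, and 4 root genes 0.0292 to 1009, highest for PYK10. The seed genes CRA1 and OLEO2 had 0.227 and 2.40 FPKM, and of the pollen genes ANX1 had 2.199 and VGD1 was listed at 0. In whole seedlings, fewer green cells and less of an RNA per cell cannot be told apart.

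**Figure D1:**
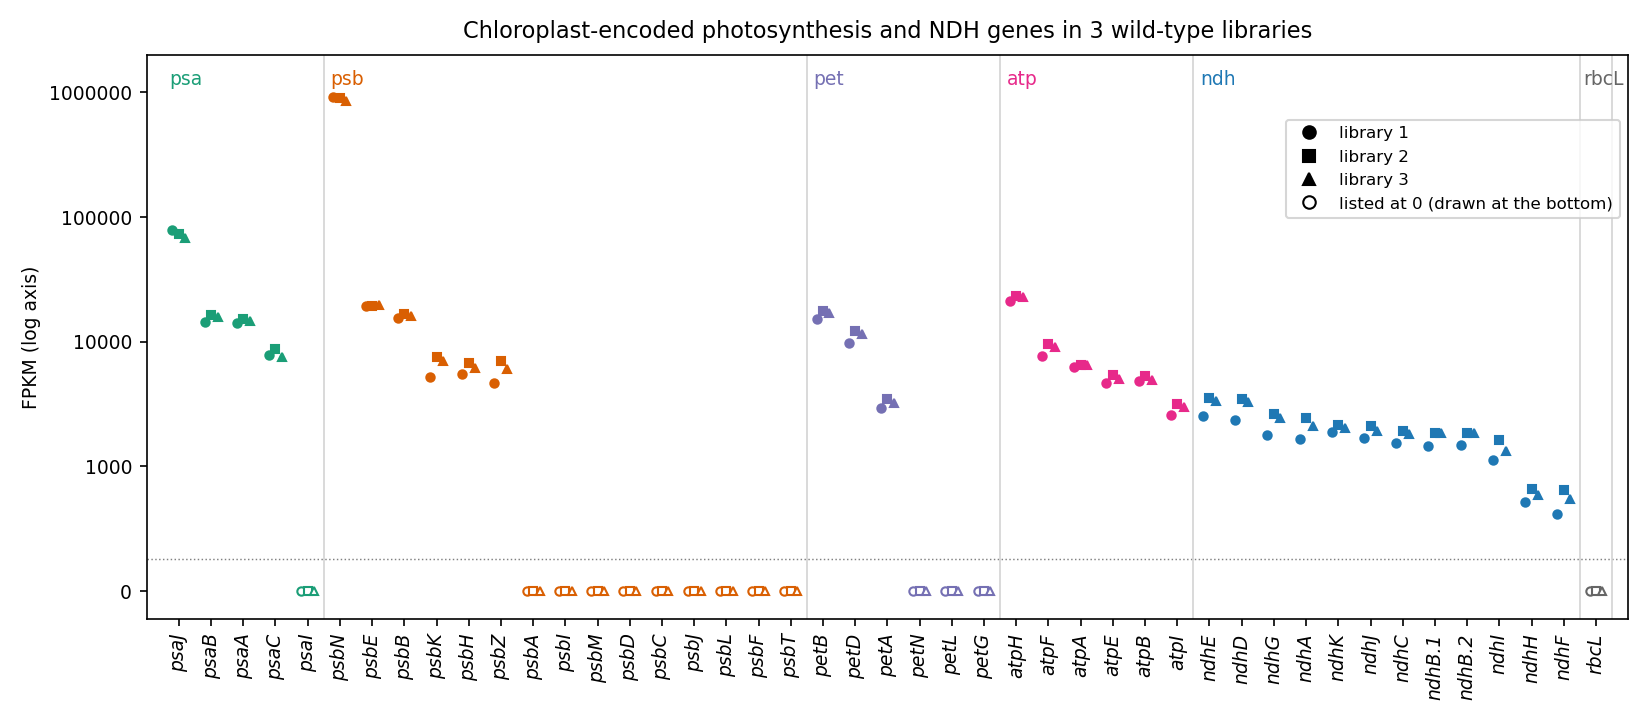
FPKM (log axis) of each of the 45 genes in the 3 libraries, grouped by complex and ordered by mean, with 1 symbol per library; open symbols on the line marked 0 are genes listed at 0. The ndh genes have means between 538 and 3131 FPKM, a range that among the other genes with a value only atpI (2907) enters, and library 1 lies under the other libraries for all 12 of them.

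All 10 genes of up to 123 nt were listed at 0 in every library: petN, petL, petG, psbI, psbM, psbJ, psbL, psbF, psbT and psaI. They encode the smallest subunits of the cytochrome b6f complex and of the photosystems, the shortest being petN with 90 nt. The next genes in length had the highest values: psbN with 132 nt had 919855, 909995 and 847986 FPKM in libraries 1, 2 and 3, and psaJ with 135 nt had 78941, 73818 and 67739. Thus psbJ and psbN differ by a few codons in length and lie at opposite ends of the listed values. They also differ in nuclear copies of at least 90% identity, which covered 98.4% of psbJ and 0% of psbN. Each other gene of up to 123 nt also had 0%. The coding sequences of psbJ and psbN, with 3 more on either side of that length, are shown because they are shorter than usual for an RNA-seq fragment. They are printed in the coding direction from the RefSeq annotation of TAIR10.1, where each is a single-exon protein-coding gene of the chloroplast genome (ChrC), and the capitals mark the start and stop codons.
petN, ChrC:28089-28178, plus strand, listed at 0: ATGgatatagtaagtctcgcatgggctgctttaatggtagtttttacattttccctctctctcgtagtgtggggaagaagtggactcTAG
psbT, ChrC:74082-74183, plus strand, listed at 0: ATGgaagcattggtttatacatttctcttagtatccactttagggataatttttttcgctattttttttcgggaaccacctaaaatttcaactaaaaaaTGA
psbJ, ChrC:63538-63660, minus strand, listed at 0: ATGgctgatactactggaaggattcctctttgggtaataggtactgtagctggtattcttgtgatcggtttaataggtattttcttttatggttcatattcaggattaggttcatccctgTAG
psbN, ChrC:74249-74380, minus strand, the highest value: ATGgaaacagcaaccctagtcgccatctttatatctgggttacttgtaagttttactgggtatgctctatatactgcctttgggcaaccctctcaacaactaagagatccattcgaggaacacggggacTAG
psaJ, ChrC:66929-67063, plus strand, the next highest: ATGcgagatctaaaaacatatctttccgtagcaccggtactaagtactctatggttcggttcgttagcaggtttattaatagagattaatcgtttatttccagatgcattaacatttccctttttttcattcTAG

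FPKM is unstable for transcripts close to the length of the sequenced fragments, and an exact 0 in such a table can be a failed estimate. The levels of psbN, psaJ and the 10 genes at 0 are therefore given as listed and are not read as abundance. The length at which this instability ends was not tested. psbK, psbZ, psbH, atpH, psaC and psbE, with 186 to 252 nt, are short as well, as is the neighbouring gene rps14 with 303 nt. Comparisons of these genes with longer ones below carry the same limit. In addition, psbN lies on the strand opposite to psbT and psbH, between them, and the sources used here do not say whether the strand entered the estimate. Reads of psbN and of RNA antisense to it cannot be told apart without it. Among the other chloroplast genes, rpl36, with 114 nt, was also listed at 0, and rpl32, with 159 nt, had 4558 FPKM.

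The other 4 genes at 0 were among the longest and best known. They were psbA (ATCG00020) and psbD (ATCG00270), which encode the reaction centre proteins D1 and D2 of photosystem II (1062 nt each), psbC (ATCG00280), which encodes its inner antenna protein CP43 (1422 nt), and rbcL (ATCG00490, 1440 nt). These transcripts are among the most abundant of green tissue, as background knowledge, so a listed 0 does not show that they were absent. Of the 15 genes over 1000 nt, the other 11 had values. The psbD and psbC frames overlap by 53 nt. Copies of at least 90% identity outside the chloroplast genome covered 47.6% of psbA in the nuclear and 47.6% in the mitochondrial sequence, and 47.5% and 39.8% of rbcL. They covered 14.8% and 10.2% of psbD, and 2.67% of psbC in the nuclear sequence. Whether these features bear on the listed 0 was not tested.

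**Figure D2:**
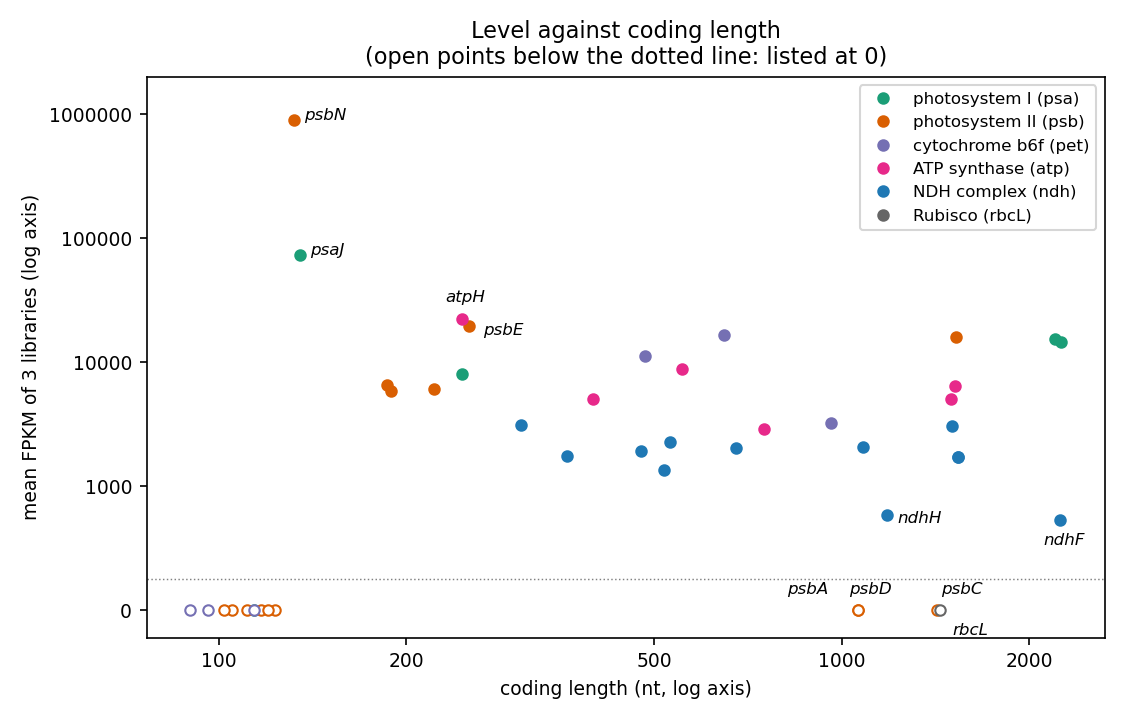
Mean FPKM over 3 libraries (log axis) against coding length (log axis) of the 45 genes, coloured by complex; open points on the line marked 0 are listed at 0. The 10 genes of up to 123 nt are at 0, psbN and psaJ stand highest just above that length, and psbA, psbD, psbC and rbcL are the only long genes at 0.

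Over the 45 genes, length and mean FPKM had a Spearman rho of 0.26. Among the 31 genes with a value it was -0.38, and among the 23 of these with at least 300 nt it was 0.04. These are descriptions across genes of the same libraries. The 8 genes of 132 to 252 nt all had a value, the lowest being psbZ with a mean of 5891 FPKM; besides psbN and psaJ these were psbK, psbZ, psbH, atpH, psaC and psbE.

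Among genes of at least 300 nt with a value, psaA, psaB, psbB and petB had means of 14677 to 16632 FPKM, and the 12 ndh genes had the lowest median of the complexes. Taken over all listed members, the median in libraries 1, 2 and 3 was 14080, 15258 and 14695 FPKM for the 5 psa genes, 1464, 1738 and 1622 for the 6 pet genes, 5553, 5978 and 5782 for the 6 atp genes, and 1601, 2017 and 1894 for the 12 ndh genes. It was 0 for the 15 psb genes, of which 9 were listed at 0, and the pet median lies between a gene with a value and a gene at 0. The median over all 45 genes was 1800, 2443 and 2123 FPKM, beside 755, 918 and 863 for the other 43 chloroplast loci and 3.74, 3.64 and 3.83 for 27164 nuclear loci. No test was made on these medians.

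In photosystem I, the genes of the heterodimer that carries the reaction centre were nearly level. psaA (ATCG00350) had 14080, 15258 and 14695 FPKM in libraries 1, 2 and 3 (14677 ± 589, SD, n = 3), and psaB (ATCG00340) had 14443, 16434 and 15729 (15535 ± 1010). The ranges of psaA and psaB overlap. psaC, which encodes the iron-sulphur subunit that passes electrons to ferredoxin, had 7791, 8699 and 7554 FPKM, under every value of psaA and psaB. psaI was listed at 0.

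In photosystem II, psbE, which encodes the alpha subunit of cytochrome b559, had 19431, 19259 and 19689 FPKM and was the steadiest of all 31 genes, its log2 values having an SD of 0.016. psbF, the gene of the beta subunit, follows it after 9 nt and was listed at 0. psbB, which encodes the inner antenna protein CP47, had 15521, 16728 and 16022 FPKM. The small subunit genes psbK, psbH and psbZ averaged 6603 ± 1251, 6140 ± 667 and 5891 ± 1179 FPKM (SD, n = 3). Of these, psbZ had 4656, 7003 and 6013 FPKM in libraries 1, 2 and 3. Every value of the 3 genes lies under those of psbB and psbE.

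In the cytochrome b6f complex, petA, which encodes cytochrome f, had 2929, 3477 and 3245 FPKM. petB, which encodes cytochrome b6, had 15259, 17759 and 16878, and petD, which encodes subunit IV, had 9779, 12186 and 11607. The ranges of the 3 genes do not overlap. petA was 2.37 under petB on the log2(FPKM + 1) scale (mean difference -2.37, SE 0.043, lower in 3 of 3 libraries, limma adjusted p = 4.1e-10).

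In the ATP synthase, atpH, which encodes the ring subunit c, had 21396, 23094 and 23014 FPKM. Each enzyme holds many copies of subunit c and 1 of subunit a, which is encoded by atpI, the lowest atp gene with 2570, 3143 and 3008 FPKM. On average atpH, a short gene of 246 nt, was 7.74 times atpI (750 nt) and 3.50 times atpA (1524 nt). The log2 difference of atpI over atpH was -2.96 on FPKM and -1.35 on FPKM multiplied by coding length. Whether RNA levels follow the numbers of subunits was not tested. The catalytic head is built from equal numbers of alpha and beta subunits, encoded by atpA and atpB. atpA had 6234, 6528 and 6521 FPKM, and atpB had 4872, 5295 and 4942. The difference of 0.35 on the log2 scale (SE 0.046) passed the test (limma adjusted p = 8.2e-05, atpA higher in 3 of 3 libraries) but was less than 2-fold. Nuclear copies of at least 90% identity covered 100% of atpH and of atpI, so part of their reads may match elsewhere.

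In the NDH complex, ndhF (ATCG01010), which encodes a membrane subunit, was lowest of all 31 genes with a value, at 416, 648 and 551 FPKM, and ndhH, of the subcomplex that faces the stroma, had 517, 657 and 586. Other membrane subunit genes, ndhE and ndhD, were highest. ndhE (ATCG01070) had 2519, 3528 and 3347 FPKM, and ndhD (ATCG01050) had 2358, 3501 and 3317. ndhF was 2.51 under ndhD on the log2 scale (mean difference -2.51, SE 0.047, lower in 3 of 3 libraries, limma adjusted p = 4.8e-10). The end of ndhF overlaps the partial ycf1 frame on the other strand, and nuclear copies covered 77.2% of it. The loci ndhB.1 and ndhB.2 lie in the inverted repeat and have identical coding sequences (0 mismatches over 1539 nt). They had 1473, 1852 and 1852 FPKM each, equal within 0.0135%, and the coding sequences give no base by which reads of the copies could be told apart. Their sum, 3451 ± 438 FPKM (SD, n = 3), would be the highest ndh value.

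The 3 subunit pairs that included psbA, psbC, psbD or rbcL had no value to test: psbA with psbD, psbB with psbC, and rbcL with psbA. The tests of petA with petB, ndhF with ndhD and atpA with atpB come from the fit of neighbouring genes described next, which they entered as additional pairs.

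Neighbouring genes on the same strand were compared by the log2 difference of the upstream minus the downstream gene in the direction of transcription. One limma fit covered all 6377 such pairs of the nuclear and chloroplast genomes with at least 1 FPKM in each gene, and p-values were adjusted over all of them. Genes encoding tRNAs, which have no value in these files, were skipped, so that a pair is not always 1 transcription unit. Of 38 pairs with a photosynthesis or NDH gene, 25 were testable, and 13 held a gene listed at 0. At an adjusted p under 0.05 and at least 2-fold apart, 11 of 25 pairs were called, against a background of 63.5% of all pairs. All called pairs but ycf3 with psaA, rps2 with atpI, ndhH with ndhA and atpE with ndhC include a gene named above as short. At an adjusted p under 0.05 alone, 22 of 25 were called, against 92.5%. The median absolute difference was 0.75 on the log2 scale over the 25 pairs, 0.81 over 19 chloroplast pairs without such a gene, and 1.41 over 6333 nuclear pairs. The difference between these medians was not tested. FPKM was also multiplied by length, the coding length of chloroplast genes and the longest transcript of nuclear genes. The product is a rough fragment scale, because the lengths behind the deposited values are not known. On it, 17 of 25 pairs were called, against 65.8% of all pairs, so a count under the share of all pairs depends on the scale. On that scale the direction turned for 7 of the 25 pairs: atpF over atpA (-1.0023), atpB over atpE (1.90), psaB over rps14 (1.37), psaC over ndhD (-1.20), ndhG over ndhE (0.34) and rps7 over ndhB in each repeat (-1.35).

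**Figure D3:**
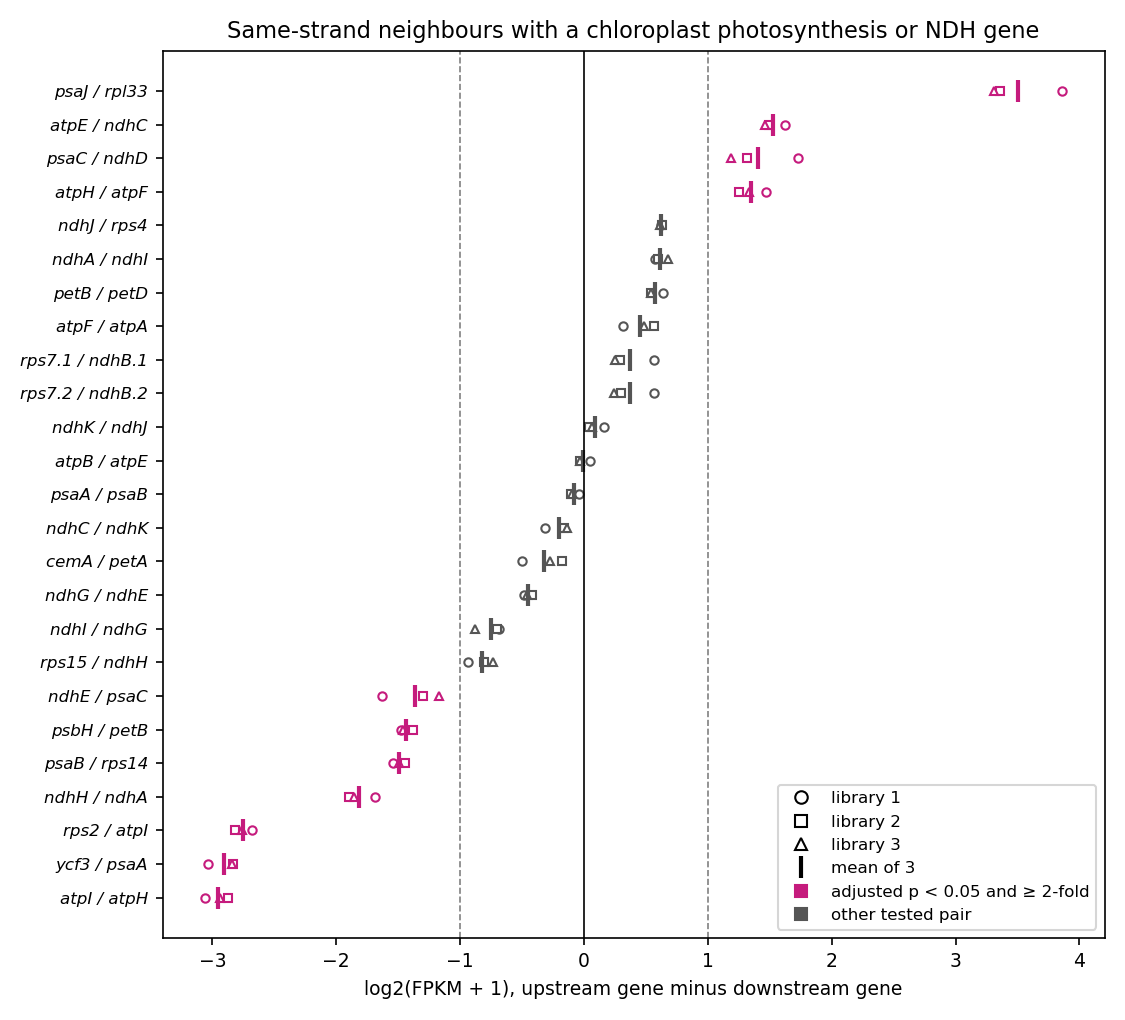
Difference in log2(FPKM + 1), upstream gene minus downstream gene, for the 25 testable same-strand neighbour pairs, with 1 symbol per library and a bar at the mean; dashed lines mark 2-fold. Of the 11 called pairs, 4 have the upstream gene higher and 7 the downstream gene higher, and atpB / atpE, psaA / psaB and ndhK / ndhJ lie closest to 0.

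The 3 pairs closest in level were atpB with atpE, psaA with psaB, and ndhK with ndhJ. atpB and atpE overlap by 4 nt, so that the stop codon of atpB lies within these bases with the start codon of atpE. atpB had 4872, 5295 and 4942 FPKM in libraries 1, 2 and 3, and atpE, the gene of the epsilon subunit, had 4704, 5429 and 5043. The difference was -0.005 (SE 0.046, limma adjusted p = 0.92), and atpB was higher in 1 of 3 libraries. On the fragment scale, atpB was 1.90 above atpE. psaA and psaB, 25 nt apart, differed by -0.08 (SE 0.047, limma adjusted p = 0.13), with psaA lower in 3 of 3 libraries. Without library 1 that pair passed the test, at -0.10 (limma adjusted p = 0.00073), and without library 2 or 3 it did not (0.47 and 0.60). ndhK had 1902, 2160 and 2020 FPKM, and ndhJ, 103 nt away, had 1704, 2102 and 1936. They differed by 0.09 (SE 0.046, limma adjusted p = 0.10), with ndhK higher in 3 of 3, and by 0.59 on the fragment scale (limma adjusted p = 1.6e-08). A p over the threshold does not show equal levels. ndhH and ndhA are 1 nt apart and were unlike in level. ndhH had 517, 657 and 586 FPKM, against 1672, 2443 and 2123 for ndhA, and was 1.81 under ndhA (SE 0.052, limma adjusted p = 3.9e-09). The junctions are printed from TAIR10.1 in the direction of transcription, with some bases of each frame. Capitals mark the overlap of the frames for atpB-atpE and psbD-psbC, and the stop codon of the upstream gene and the start codon of the downstream gene for the others.
atpB-atpE, ChrC:52640-52683, minus strand: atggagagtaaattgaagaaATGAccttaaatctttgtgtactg
psaA-psaB, ChrC:39559-39625, minus strand: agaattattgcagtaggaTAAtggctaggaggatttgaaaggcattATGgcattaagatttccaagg
ndhH-ndhA, ChrC:121989-122031, minus strand: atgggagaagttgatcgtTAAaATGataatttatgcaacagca
psbD-psbC, ChrC:33700-33792, plus strand: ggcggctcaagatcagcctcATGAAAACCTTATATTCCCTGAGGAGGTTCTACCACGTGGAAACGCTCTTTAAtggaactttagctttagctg

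In the group rps2, atpI, atpH, atpF and atpA, levels along the direction of transcription were uneven. rps2, a ribosomal protein gene, had 400, 445 and 443 FPKM, and was 2.75 under atpI (SE 0.046, limma adjusted p = 3.0e-10). atpI was 2.96 under atpH (SE 0.050, limma adjusted p = 3.3e-10), and atpH was 1.35 above atpF (SE 0.054, limma adjusted p = 3.1e-08), a difference that was 0.18 on the fragment scale and there under 2-fold. atpF, which encodes a stalk subunit and has an intron, had 7742, 9678 and 9120 FPKM. It exceeded atpA by 0.45 (SE 0.058, limma adjusted p = 7.4e-05), with the other sign on the fragment scale. atpH, a short gene in the middle of the group, had the highest FPKM of the 5 in every library. On the fragment scale, atpH over atpF was 0.18 and atpF over atpA was -1.0023, so atpA lay above atpH there. ycf3, an assembly factor of photosystem I that lies 726 nt upstream of psaA, had 1715, 2136 and 2051 FPKM and was 2.90 under it (SE 0.053, limma adjusted p = 4.6e-10). At the other end of that group, psaB had 14443, 16434 and 15729 FPKM, against 42130, 44791 and 44188 for the ribosomal protein gene rps14 behind it. psaB was 1.49 under rps14 (SE 0.048, limma adjusted p = 7.9e-09), with the other sign on the fragment scale.

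In the group from rps15 to ndhD, psaC had the highest FPKM and the upstream end the lowest. In the direction of transcription, the means were 332 FPKM for rps15, 587 for ndhH, 2080 for ndhA, 1354 for ndhI, 2289 for ndhG, 3131 for ndhE, 8015 for psaC and 3059 for ndhD. psaC, the photosystem I gene in this otherwise NDH group, was 1.41 above ndhD (SE 0.092, limma adjusted p = 7.5e-07) and ndhE 1.37 under psaC (SE 0.080, limma adjusted p = 3.6e-07). Each of these differences had 1 sign in 3 of 3 libraries. On the fragment scale, psaC over ndhD turned to -1.20, and ndhE stayed 1.05 under psaC. Of the other steps, ndhG under ndhE (-0.46, with the other sign on the fragment scale), ndhI under ndhG (-0.75) and ndhA over ndhI (0.62) passed the test below 2-fold. In the other NDH group, ndhC, ndhK and ndhJ lay within 2-fold of each other, with means of 1765 ± 210, 2027 ± 129 and 1914 ± 200 FPKM (SD, n = 3).

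In the psbB group, psbB (16090 ± 607 FPKM) and petB (16632 ± 1268, SD, n = 3) had a ratio of means of 0.967, and psbH between them was lower. psbH was 1.44 under petB (SE 0.046, limma adjusted p = 7.7e-09), and petB was 0.58 above petD (SE 0.048, limma adjusted p = 4.1e-06), both genes with an intron. psbT, between psbB and psbH, was listed at 0. psaJ had 78941, 73818 and 67739 FPKM, against 5441, 7213 and 6832 for rpl33, a ribosomal protein gene. This was the largest difference of the 25, 3.51 (SE 0.099, limma adjusted p = 3.7e-09), and psaJ is among the short genes whose FPKM is not read as abundance. Upstream of petA, cemA of the chloroplast envelope was 0.32 under it (SE 0.065, limma adjusted p = 0.0014). The ndhB copies followed rps7 with a difference of 0.37 in each repeat (SE 0.065, limma adjusted p = 0.00061 and 0.00062), rps7 being higher in 3 of 3 libraries. This difference had the other sign on the fragment scale.

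Library 1 was lowest for 27 of the 31 genes with a value and library 2 highest for 27. The other chloroplast loci were alike in this, with library 1 lowest for 35 of 41 and library 2 highest for 37, against 2046 and 2056 of 8291 nuclear genes. The highest library was more than 1.5 times the lowest for 2 of the 31, ndhF (1.56) and psbZ (1.504), against 1.06% of 8295 nuclear genes with at least 10 FPKM. Over the 31 genes, library 2 had a median of 1.23 times the value of library 1, against 1.203 times for the other chloroplast loci and 0.972 times for nuclear genes. Libraries are single samples here, so no test was made.

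Among the complexes, the NDH genes had the highest median ratio. The median ratio of library 2 to library 1 was 1.33 for the 12 ndh genes, from 1.14 for ndhK to 1.56 for ndhF, and library 1 was lowest for all 12. It was 1.1001 for 4 psa genes, 1.16 for 6 psb genes, 1.19 for 3 pet genes and 1.12 for 6 atp genes. The 3 genes with the largest SD on the log2 scale were ndhF (0.32), ndhD (0.31) and psbZ (0.30). The 17 nuclear-encoded NDH subunits had a median ratio of 1.02, and library 1 was lowest for 2 of 17. Library 2 was below library 1 for 3 of the 31 genes: psaJ (0.935), psbN (0.989) and psbE (0.991).

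GC content of the coding sequence moved with this difference between libraries. Over the 31 genes, GC content and the ratio of library 2 to library 1 had a Spearman rho of -0.80, and over the 23 of at least 300 nt -0.91. Within the 12 ndh genes, with both ndhB copies counted, it was -0.85, and over the 19 other genes -0.63. Over 37 other chloroplast genes it was -0.76. Coding length had a rho of 0.11 with the same ratio over the 31 genes. These are descriptions across genes that share their libraries and, in the groups above, their precursors. The ndh genes were the poorest in GC, with a median of 35.5% (range 30.4% to 40.7%), against 40.6% for the 15 other genes of at least 300 nt. The parts of GC content and of the complex in the difference between the libraries were not tested. Level and GC content were also related, with a rho of 0.59 over the 23 longer genes with a value, 0.36 over the 11 of them outside ndh and -0.19 within ndh.

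**Figure D4:**
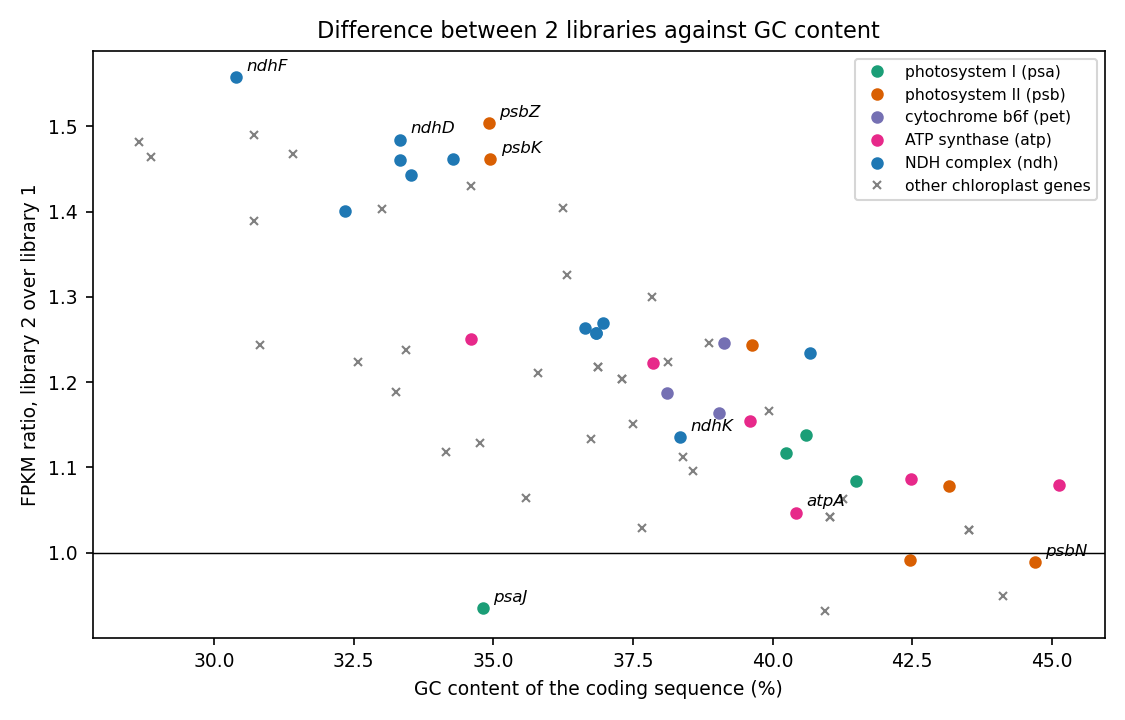
Ratio of FPKM in library 2 over library 1 against GC content of the coding sequence, for the 31 genes with a value (coloured by complex) and 37 other chloroplast genes (crosses). Genes poor in GC, such as ndhF (1.56) and ndhD (1.48), lie high, and psaJ (0.935), at 34.8% GC, lies lowest of the 31.

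Each of these complexes also holds subunits encoded in the nucleus, of which 49 were listed, and in each complex but Rubisco the median of the chloroplast-encoded genes listed above 0 was higher. Over all 15 psb genes, 9 of them at 0, the median was 0, against 1642 FPKM for the nuclear genes of photosystem II. In photosystem I, the lowest chloroplast gene with a value, psaC (8015 FPKM), exceeded the highest of 12 nuclear genes, PSAG (2660 ± 70.6). All 6 atp genes, from 2907 FPKM, exceeded the highest of 4 nuclear genes, ATPC1 (666 ± 13.9), which encodes the gamma subunit. petA, petD and petB exceeded PETC (507 ± 21.2), the gene of the Rieske protein, and the other nuclear gene of that complex. In photosystem II, 3 of the 6 chloroplast genes with a value exceeded the highest of 10 nuclear genes, PSBR (7124 ± 272). These were psbB, psbE and psbN, while psbK, psbH and psbZ lay under PSBR. The level of psbN is not read as abundance and psbE is among the short genes, which leaves psbB (1527 nt) without that limit. rbcL at 0 stood beside 1198 to 6896 FPKM for 4 genes of the Rubisco small subunit.

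The gap was widest in the NDH complex. The 12 chloroplast genes had 538 to 3131 FPKM, and the 17 nuclear genes 9.65 (NDHT) to 116 (NDHS). The ratio of the chloroplast median to the nuclear median in libraries 1, 2 and 3 was 34.1, 42.2 and 43.4 for the NDH complex, against 8.25, 10.1 and 9.57 for photosystem I, 6.22, 7.45 and 7.17 for photosystem II, 16.1, 19.995 and 20.6 for the cytochrome b6f complex and 10.4, 11.9 and 11.8 for the ATP synthase. The ratios of the photosystems include psaJ and psbN, whose levels are not read as abundance. All the ratios are descriptions with no test. They use only the chloroplast genes with a value, which leaves out genes at 0 in 3 complexes. The NDH and ATP synthase ratios need no such choice, since all their genes had a value, but the NDH median counts both ndhB copies. Among genes with a value, the median of the NDH genes was under those of the photosystems in both genomes. Chloroplast RNA is mostly without a poly(A) tail, and these libraries kept it.

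**Figure D5:**
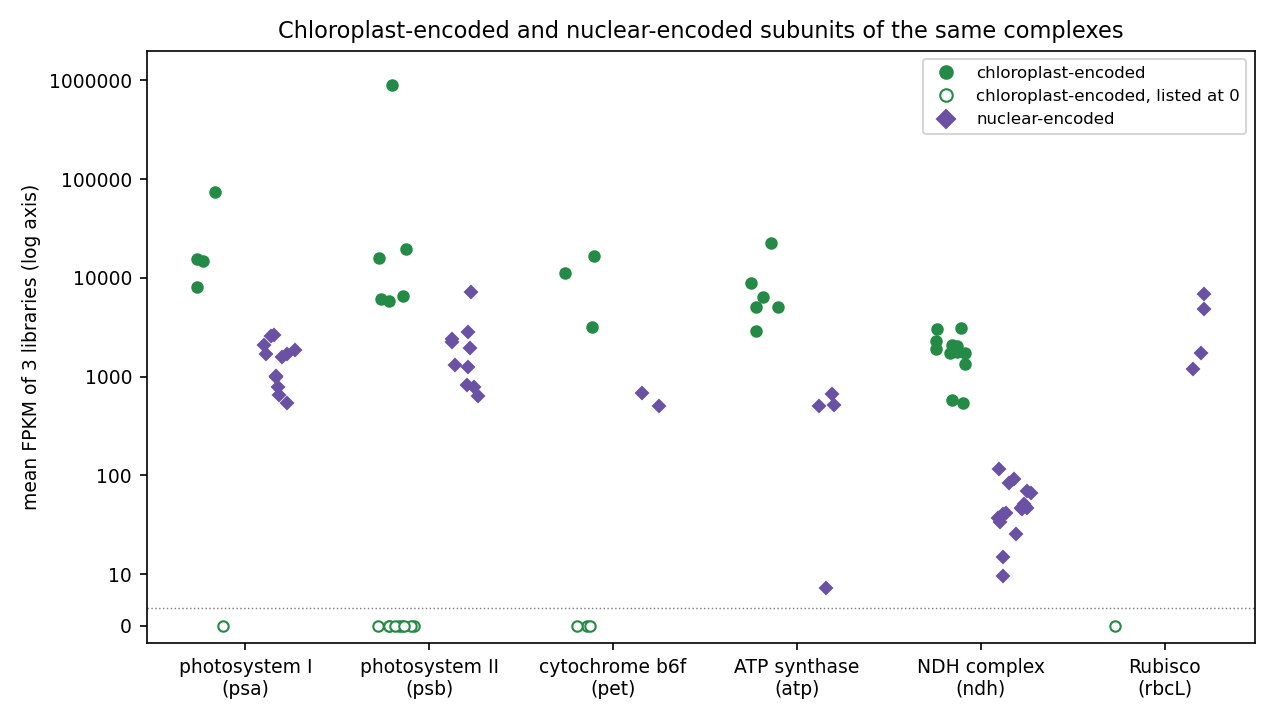
Mean FPKM over 3 libraries (log axis) of the chloroplast-encoded genes (circles, left), grouped by gene name, and of nuclear-encoded subunits of each complex (diamonds, right). Open circles on the line marked 0 are listed at 0. The 12 chloroplast ndh genes, from 538 FPKM, all lie above the 17 nuclear ones, up to 116.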

How the data were processed

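RNA of 3 wild-type libraries was analysed. The deposited values, 1 for each of 36172 transcripts, were taken as FPKM, since the file headers name no unit and the submitters' processing notes name Cufflinks 2.1.1, TopHat2 2.0.9 and the genome build TAIR10. The sources used here give no annotation, filter or scaling. Depth is unknown: low values of nuclear genes with 1 transcript gave whole fragments within 0.05 for 17.6%, 16.8% and 17.5% of values at best, where chance gives 10%.

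Transcripts were summed per locus. Names of chloroplast loci follow the TAIR nomenclature, and all 45 members lie in the order of the RefSeq genes of the same name (TAIR10.1). Coding lengths, strands and sequences came from RefSeq. Mitochondrial loci could not be placed on that annotation and entered no neighbour pair. Differences of log2(FPKM + 1) were tested with limma 3.58.1 in R 4.3.3 (intercept, empirical Bayes with a trend on the level of the lower gene, mean FPKM of 1 or more in each gene), with Benjamini-Hochberg adjustment and thresholds of 0.05 and 2-fold. Copies were found with BLAST+ 2.17.0 at 90% identity. The script was tested on simulated data. Values in full were planned for the 2 highest and the lowest gene of each complex, the ndhB copies, the subunit pairs, the 5 neighbour pairs with the largest and the 3 with the smallest difference, and the 3 genes with the largest SD; others named were chosen after their values were seen. Members and lists were chosen with earlier results of these data known. Alternatives were other pseudocounts, filters, priors and length scales, and leaving out each library.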

Additional observations from a re-analysis of the deposited data

How the results depend on the processing

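The 11 called neighbour pairs and the 2 called subunit pairs stayed 11 and 2 with a pseudocount of 0.1, with no filter, with a filter of 10 FPKM, without a trend in the prior, and without each library (11 to 11 and 2 to 2). No paired analysis was possible because there is 1 group; each difference was taken within a library. Scaled by length, roughly to fragments, 17 of 25 neighbour pairs were called, against 65.8% of all pairs. There atpF over atpA became -1.0023, psaB over rps14 1.37, atpB over atpE 1.90, rps7 over ndhB -1.35 in each repeat, ndhG over ndhE 0.34 and psaC over ndhD -1.20: this scale multiplies each value by the gene's length. Of the 28 tested pairs, 17 kept direction and call, 7 reversed, 3 crossed to a call (ndhC with ndhK, ndhA with ndhI, rps15 with ndhH) and 1 lost it (atpH over atpF, 0.18). The difference of atpB and atpE, near 0, ranged from -0.0325 to 0.0106 without each library (0.0106 without library 2 and 0.00733 without library 3). Without library 1, psaA under psaB passed the adjusted p but not 2-fold.

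Medians depended on the genes at 0. As a geometric mean, all members had 383, psa 2662, psb 51.6, pet 90.7 and atp 6749 FPKM. With only genes of at least 300 nt, pet had 11191 and atp 5114. With only genes listed above 0, an alternative chosen after seeing the data, all members had 5059, psb 11393 and pet 11191. Without each library the medians ranged from 1962 to 2283 over all members, 14387 to 14976 for psa, 1543 to 1680 for pet, 5668 to 5880 for atp and 1747 to 1956 for ndh, and stayed at 0 for psb and rbcL. No gene reached a 2-fold difference between libraries (0 genes), and 3 passed 1.5-fold after scaling to nuclear genes. The rho of length and level, 0.26, was 0.261 to 0.267 without each library, 0.296 with the ndhB copies summed, -0.0205 over genes of at least 300 nt, 0.0371 over those listed above 0, and -0.38 over all genes listed above 0; the last 2 were added after seeing the data.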
